A study of Homo sapiens with 4 samples.

Results

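Early S phase cells of BT474, a breast cancer cell line, were 1785 of 14867 cells, chosen by the summed UMIs (unique molecular identifiers, 1 per captured RNA molecule) of FAM111B, MCM10, HELLS, CLSPN, CDC45, CDT1, GINS2 and UHRF1 per 10000 UMIs of the cell, taken as the top 12% of each library. They were 408 of 3394 cells under fulvestrant, 412 of 3433 under neratinib, 456 of 3800 under both drugs and 509 of 4240 under DMSO. A cell was a barcode with at least 5000 UMIs, at least 500 genes and at most 50% of UMIs from mitochondrial (MT-) genes.

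BT474 is an established line with estrogen receptor and amplified HER2. The cells were treated for 4 h with 100 nM fulvestrant, an antagonist that degrades the estrogen receptor, with 200 nM neratinib, an irreversible inhibitor of the HER2 family kinases, with both drugs at these doses, or with DMSO, the vehicle. Each group was 1 single-cell RNA-seq library (10x Genomics), so no difference between groups has a replicate check, no test was made, and cells were not used as replicates. Square brackets hold 95% intervals, which cover counting error only.

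A cell enters S phase when cyclin D and cyclin E kinases release E2F factors from the retinoblastoma protein, and E2F then switches on the genes for origin licensing, the replication fork and nucleotide supply. These transcripts peak around the G1/S boundary, while the core and linker histone transcripts of S phase peak once replication is under way. HER2 signalling through ERK and the estrogen receptor both act on cyclin D and MYC upstream of this switch.

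The RNA of the 8 genes defines the cells, and promoter sequence was not used in that choice. The 4 promoters shown here all have an E2F site in the spellings given below, and those of MCM10 and CDC45 have none in these spellings. They run from 250 bases before to 50 bases after the transcription start and come from RefSeq on GRCh38.p14, where the windows are chr10:94545538-94545837 (plus strand), chr1:35769929-35770228 (minus strand), chr16:88803539-88803838 (plus strand) and chr16:85688905-85689204 (minus strand). Capitals mark an E2F site spelled TTTCCCGC, TTTCGCGC, TTTGCCGC or TTTGGCGC on either strand, and each sequence is read 5′ to 3′ along the gene.
HELLS: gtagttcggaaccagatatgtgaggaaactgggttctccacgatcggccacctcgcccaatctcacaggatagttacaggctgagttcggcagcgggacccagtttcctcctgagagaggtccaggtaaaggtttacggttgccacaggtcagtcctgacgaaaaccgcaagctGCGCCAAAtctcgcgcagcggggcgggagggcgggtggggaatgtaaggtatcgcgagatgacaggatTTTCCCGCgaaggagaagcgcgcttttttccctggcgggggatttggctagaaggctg
CLSPN: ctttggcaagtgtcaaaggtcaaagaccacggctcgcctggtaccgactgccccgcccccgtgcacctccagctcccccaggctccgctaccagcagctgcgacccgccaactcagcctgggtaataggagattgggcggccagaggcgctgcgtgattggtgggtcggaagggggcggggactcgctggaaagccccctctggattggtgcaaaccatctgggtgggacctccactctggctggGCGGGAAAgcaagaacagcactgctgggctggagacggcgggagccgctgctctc
CDT1: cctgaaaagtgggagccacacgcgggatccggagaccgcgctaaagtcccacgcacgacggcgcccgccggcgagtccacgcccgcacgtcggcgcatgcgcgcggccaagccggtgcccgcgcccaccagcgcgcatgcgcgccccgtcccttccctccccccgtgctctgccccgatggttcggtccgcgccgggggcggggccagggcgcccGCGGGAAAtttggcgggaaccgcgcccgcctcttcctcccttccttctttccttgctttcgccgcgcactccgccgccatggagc
GINS2: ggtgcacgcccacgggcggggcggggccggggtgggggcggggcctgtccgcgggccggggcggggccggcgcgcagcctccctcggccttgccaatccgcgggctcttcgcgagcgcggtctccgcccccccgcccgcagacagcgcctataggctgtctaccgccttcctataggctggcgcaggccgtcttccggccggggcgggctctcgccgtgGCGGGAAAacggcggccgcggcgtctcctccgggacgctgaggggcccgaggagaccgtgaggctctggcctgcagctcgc

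The last 3 promoters carry GCGGGAAA, which is TTTCCCGC read on the other strand. HELLS carries TTTCCCGC itself and a second site, GCGCCAAA, which is TTTGGCGC on the other strand. Of the 7 genes of the 8 with a promoter in the table, 5 had such a site in any of their windows (71.4%). By the same count per gene, 3.99% of all 27305 genes with a window had one. So did 8.32% of the 4028 genes that were measured here and had a window. Counted per window, the share was 3.31% of all 35116 windows of that length. MCM10 and CDC45 had no site of these spellings in any window, UHRF1 had sites and is not shown, and FAM111B had no window. MCM10, CDC45 and CDT1 each hold TTTGGCGG, which differs from TTTGGCGC in the last base, was not searched and is not marked. The lack of a match in MCM10 and CDC45 thus depends on the spellings chosen. Among the genes past 1.5-fold higher in early S cells than in other cells in all 4 libraries (4.83% of all measured genes), 64 of 190 with a window had a site (33.7%), and among those lower in all 4 (0.805%), 1 of 35 did (2.86%). Origin licensing and firing genes had a site in 13 of 20 (65%), replication fork genes in 9 of 28 (32.1%) and genes of G2 and mitosis in 3 of 35 (8.57%). A match is a description of these letters and not a measured binding site, and base composition was not matched between the sets.

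The score that chose the cells had a median of 10.6 UMIs per 10000 in the chosen cells under fulvestrant, 7.27 under neratinib, 7.61 under both drugs and 10.1 under DMSO. The cells just inside the cut had 8.33, 5.42, 5.78 and 7.87 in the same order of libraries, and the cells just outside had 8.32, 5.42, 5.78 and 7.87. The cut lay lower in both neratinib libraries, and the score had no gap at it. No UMI of any of the 8 genes was seen in 30.2% of all cells under fulvestrant, 33.6% under neratinib, 34.8% under both drugs and 30.4% under DMSO.

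Early S cells were deeper than the rest, with median UMIs of 27778.5 under fulvestrant, 28706 under neratinib, 28272 under both drugs and 27051 under DMSO, against 22412.5, 21575, 21399.5 and 21934 in the other cells. They held 11180550, 11733495, 12622218 and 13597175 UMIs in all. The median mitochondrial share was 16.4% and 20.6% under fulvestrant and neratinib, 20.4% under both drugs and 16.2% under DMSO, against 16.6%, 21.0%, 21.1% and 16.2% in the other cells. Free RNA, read in barcodes of 10 to 100 UMIs, scored 2.93, 1.94, 2.11 and 2.85 on the 8 genes, close to the mean over all cells of 2.84, 1.82, 1.93 and 2.67. From 2 to 5 cell barcodes were shared by any pair of libraries, and 1 was an early S cell in both, under fulvestrant and under both drugs.

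All 8 genes were higher in early S cells in every library, which the choice by these genes favours. Summed, they had 1095 CPM under fulvestrant, 761 under neratinib, 789 under both drugs and 1052.5 under DMSO in early S cells, and 980, 693, 688 and 943 CPM when cells were chosen on a random part of their UMIs and read on the rest. FAM111B, a nuclear protease, had 263 CPM (UMIs per 1000000 UMIs of the sum) under fulvestrant, 148 under neratinib, 165 under both drugs and 252 under DMSO in early S cells, against 31.7, 14.5, 17.7 and 28.3 CPM in the other cells. CLSPN, the claspin adaptor of the replication checkpoint, had 175, 82.2, 86.2 and 154 CPM in early S cells, against 31.7, 12.8, 15.2 and 27.5 CPM in the other cells. In both genes the 2 libraries without neratinib are the high ones in either kind of cell. CDT1, the licensing factor that loads the MCM helicase, had 135, 161, 156 and 134 CPM in early S cells, against 30.9, 26.1, 27.2 and 28.5 CPM in the other cells, and so was highest in the neratinib libraries among early S cells and lowest there among the others. GINS2, a subunit of the active helicase, had 122, 109, 115 and 120 CPM in early S cells and differed least between the libraries.

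**Figure D1:**
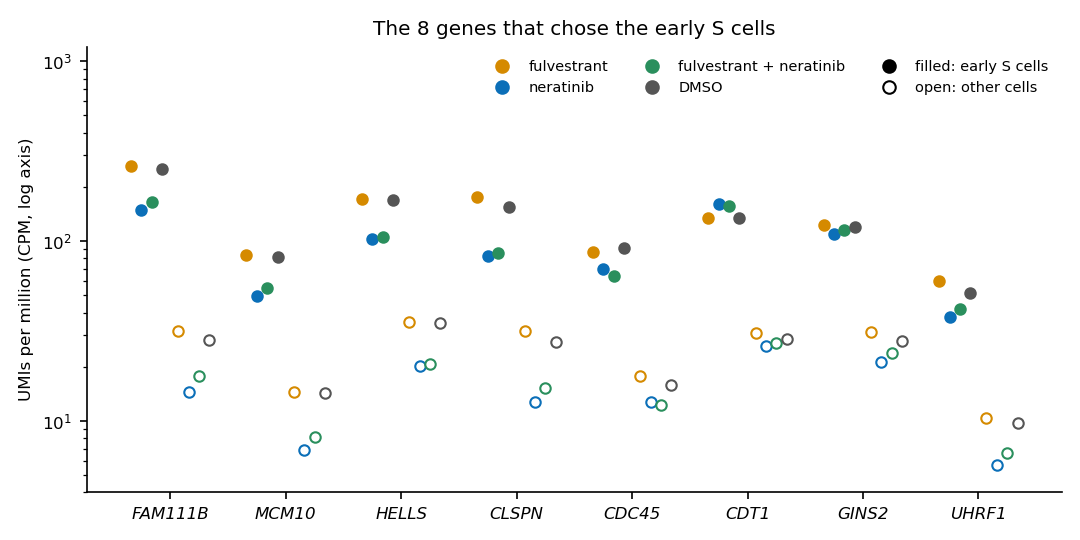
Level (CPM, log axis) of the 8 genes used to choose the cells, filled for early S cells and open for the other cells of each library, 1 point per library with no replicate. Filled points lie above open points for every gene, and the cells were chosen on these genes; FAM111B ran from 148 to 263 CPM in early S cells and from 14.5 to 31.7 CPM in the other cells.

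The profile of early S cells against the other cells is a description, since the same cells and counts were used to choose them. Of 4971 genes with a mean of at least 20 CPM, 315 were past 1.5-fold higher under fulvestrant (6.34%), 304 under neratinib (6.12%), 315 under both drugs (6.34%) and 303 under DMSO (6.1%), and 68, 95, 78 and 72 were past 1.5-fold lower (1.37%, 1.91%, 1.57% and 1.45%), which is 7.7%, 8.03%, 7.91% and 7.54% in either direction. The median gene lay between -0.03 and 0.00 on the log2 scale. Counts of list members below are on the log2 ratio averaged over the 4 libraries, where 5.99% of all genes were past 1.5-fold higher and 1.27% lower (7.26% in all). Some list members, such as E2F1, lay under 20 CPM in the other cells and were measured only through early S cells. This favours higher genes in these counts.

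Of 26 origin licensing and firing genes, 16 were measured, 14 were higher and 0 lower, with a median log2 ratio of 1.54 (median of all genes, -0.02). CDC6, which loads the MCM helicase together with CDT1, had 79.5 CPM under fulvestrant, 45.3 under neratinib, 52.6 under both drugs and 69.9 under DMSO in early S cells, against 17.9, 8.49, 11.2 and 14.3 CPM in the other cells. MCM5, a helicase subunit, had 84.9, 79.3, 76.2 and 93 CPM, against 22.5, 21.9, 22.7 and 19.1 CPM. Early S cells of every library were above the other cells of every library for both genes.

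Of 33 replication fork genes, 26 were measured, 25 were higher and 0 lower, with a median of 1.43. PCNA, the sliding clamp, had 527 CPM under fulvestrant, 499.6 under neratinib, 509 under both drugs and 526 under DMSO, against 156, 134, 147 and 142 CPM in the other cells. PCLAF, a PCNA-binding factor, had 367, 347, 352 and 336 CPM, against 82.9, 81.4, 81.9 and 72.5 CPM. Both were at nearly one level across the 4 libraries in early S cells.

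Of 22 nucleotide supply genes, 18 were measured, 8 were higher and 0 lower, with a median of 0.57. RRM2, the regulated subunit of ribonucleotide reductase, had 157 CPM under fulvestrant, 58.6 under neratinib, 54.8 under both drugs and 157 under DMSO, against 27.2, 9.60, 9.16 and 24.3 CPM in the other cells. TK1, a thymidine kinase, had 136, 141, 136 and 133 CPM, against 39.8, 31.2, 32.2 and 33.8 CPM. The libraries thus differed in RRM2 and hardly in TK1.

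Of 28 genes of E2F, cyclin E and the RB pathway, 12 were measured, 7 were higher and 0 lower, with a median of 0.65. E2F1 had 56.0 CPM under fulvestrant, 40.1 under neratinib, 41.7 under both drugs and 51.1 under DMSO, against 10.1, 5.65, 7.05 and 8.73 CPM in the other cells. CCNE2, a cyclin E, had 119, 54.1, 60.4 and 114 CPM, against 22.3, 8.33, 11 and 18.4 CPM. CCNE1, the other cyclin E, had 17.5, 2.39, 2.69 and 17.9 CPM, against 4.08, 1.32, 1.66 and 4.34 CPM. CCNE1 lay under the minimum of 20 CPM and is in no count here.

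Repair and chromatin genes went the same way. Of 30 genes of homologous recombination and Fanconi repair, 21 were measured and 19 were higher with 0 lower (median 1.47), among them the nuclease EXO1 and the helicase BRIP1 at mean log2 ratios of 2.40 and 2.04. Of 12 measured genes of DNA methylation and chromatin upkeep, 11 were higher and 0 lower (median 1.06), and of 6 measured replication checkpoint genes 6 were higher (median 0.79). Other genes among the 12 highest were DTL, which targets CDT1 for destruction in S phase, at 2.72, and WDR76 at 2.34.

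Of 40 genes of G2 and mitosis, 38 were measured, 0 were higher and 15 lower, with a median of -0.38. CCNB1, the mitotic cyclin, had 28.8 CPM under fulvestrant, 40.9 under neratinib, 34.5 under both drugs and 32.7 under DMSO, against 123, 145, 120 and 138 CPM in the other cells. PLK1, a mitotic kinase, had 7.16, 9.12, 8.87 and 8.75 CPM, against 38.8, 41.4, 34.4 and 44.6 CPM. The list median moved to -0.02 when each cell was weighted alike and to -0.72 with a ceiling of 20% mitochondrial UMIs. Cells that were also in the top 12% of their library for 8 genes of G2 and mitosis numbered 0, 1, 2 and 0 of the early S cells. The median early S cell nevertheless had 3.27, 4.08, 3.67 and 3.35 UMIs of these 8 genes per 10000, against 0.649, 0.627, 0.591 and 0.659 in the median other cell. The median early S cell was thus above the median other cell, while the summed level was lower in early S cells.

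Luminal markers were measured throughout, with 0 of 9 measured luminal markers past 1.5-fold. ERBB2, the HER2 gene, had 753 CPM under fulvestrant, 703 under neratinib, 662 under both drugs and 718 under DMSO in early S cells, against 1057, 992, 948 and 1012 CPM in the other cells. None of the fibroblast, immune or endothelial markers reached 20 CPM, and the 8 fibroblast markers summed to between 4.86 and 7.96 CPM in early S cells, against 10.9 to 13.1 CPM in the other cells.

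**Figure D2:**
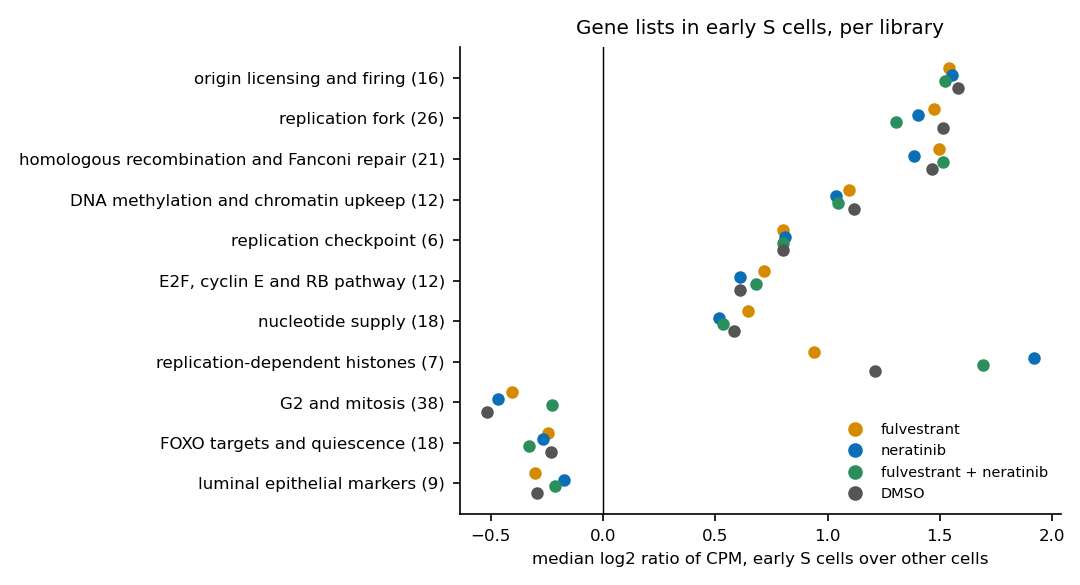
Median log2 ratio of CPM, early S cells over other cells, for 11 gene lists in each library, with the number of measured genes in brackets and 1 point per library. Replication lists sit above 0 and G2 and mitosis below 0 in all 4 libraries, and the histone list is spread widest, at 0.94 under fulvestrant, 1.92 under neratinib, 1.69 under both drugs and 1.21 under DMSO.

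Histone RNA was highest in the early S cells of both neratinib libraries. The 8 histone genes used as a mid S phase score (HIST1H4C, HIST1H1B, HIST1H1D, HIST1H1E, HIST1H2AG, HIST1H2BH, HIST1H3B and HIST1H2AL) summed to 769.6 CPM under fulvestrant, 1272 under neratinib, 1186 under both drugs and 921 under DMSO in early S cells, against 358, 326, 365 and 389 CPM in the other cells. HIST1H4C, a core histone gene, had 614, 1034, 964 and 732 CPM in early S cells, against 288, 274, 307 and 316 CPM in the other cells. Most transcripts of this kind lack a poly(A) tail, which limits how a 3′ library captures them. Near-identical copies of histone genes can share reads, so the level of a single one is uncertain.

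Early S cells that were also among the top 12% of their library by these 8 histone genes were 103 of 408 under fulvestrant (25.2% [21.1, 29.8]), 196 of 412 under neratinib (47.6% [42.7, 52.5]), 179 of 456 under both drugs (39.3% [34.7, 43.9]) and 125 of 509 under DMSO (24.6% [20.9, 28.5]). Both neratinib libraries lie above both others beyond counting error. Because a fixed 12% was taken in each library while the score lay lower under neratinib, early S cells were also chosen with the DMSO cut in every library. That left 463, 163, 196 and 509 cells, and their 8 histone genes summed to 763, 1181, 1113 and 921 CPM. Without the cells of the histone set the sums were 533, 814, 799.9 and 618 CPM, but that set is each library's own top 12% by these genes, and 0, 15, 31 and 0 of the remaining cells were still past the DMSO histone cut. The level above which cells were left out thus differed between libraries. Split into 3 groups by score, the lowest-scoring early S cells had more histone RNA than the highest-scoring ones in every library, at 849.8 against 714 CPM under fulvestrant, 1353 against 1175 under neratinib, 1213.5 against 1104 under both drugs and 1074 against 794 under DMSO. A mixture of earlier and later S phase cells and a change of level within cells cannot be told apart from these values.

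**Figure D3:**
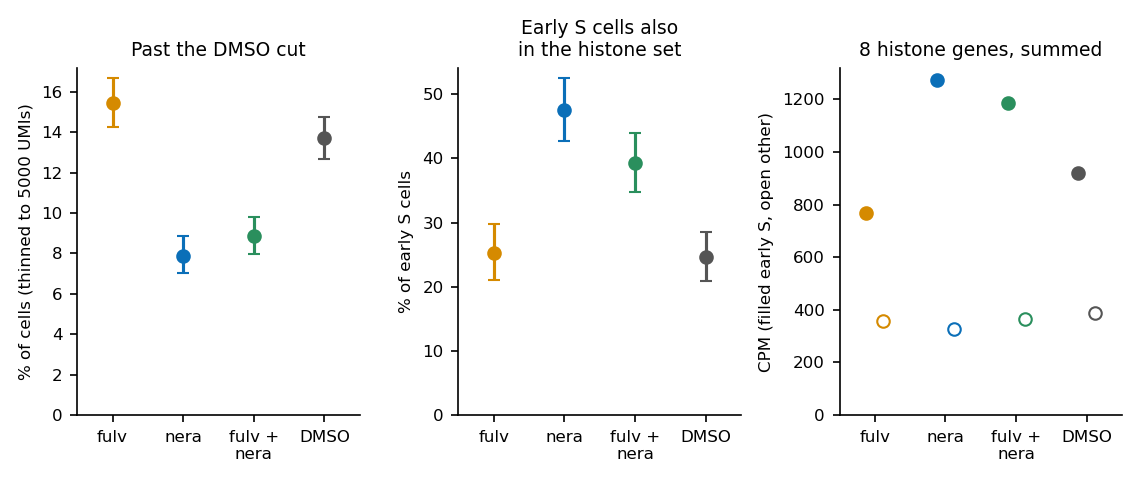
Left, percentage of cells at or above the DMSO cut after each cell was thinned to 5000 UMIs; middle, percentage of early S cells that were also in the histone set; right, summed CPM of 8 histone genes in early S cells (filled) and other cells (open). Bars are exact 95% binomial intervals for counting error; the neratinib libraries were lowest at left (7.89% and 8.84%) and highest in the middle and right panels.

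The share of cells past 1 fixed cut was read after each cell was thinned to 5000 UMIs, which left out no cell. At the DMSO cut of 8 UMIs per 10000, 15.4% [14.2, 16.7] of fulvestrant cells, 7.89% [7.01, 8.85] of neratinib cells, 8.84% [7.96, 9.79] of cells with both drugs and 13.7% [12.7, 14.8] of DMSO cells lay at or above it. Without thinning the shares were 13.6%, 4.75%, 5.16% and 12%. Both neratinib libraries were below both others at either depth. A lower share can come from fewer cells in early S phase or from less of these 8 RNAs in each, which cannot be told apart here.

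Drug responses within early S cells were read in 5 pairs of libraries. Each drug has 2 pairs that share no library, namely fulvestrant against DMSO with both drugs against neratinib, and neratinib against DMSO with both drugs against fulvestrant. Of 4925 genes with a mean of at least 20 CPM in early S cells, 3 were past 1.5-fold higher and 10 lower with fulvestrant against DMSO (0.0609% and 0.203%, 0.264% in all), and 0 higher and 12 lower with both drugs against neratinib (0% and 0.244%). With neratinib against DMSO 122 were higher and 703 lower (2.48% and 14.3%, 16.8% in all), with both drugs against fulvestrant 111 and 633 (2.25% and 12.9%, 15.1% in all), and with both drugs against DMSO 136 and 693 (2.76% and 14.1%, 16.8% in all). The median gene lay at -0.21, -0.19 and -0.19 in the 3 pairs that add neratinib and at 0.00 and 0.01 in the fulvestrant pairs. With median-of-ratios scaling, which centres the median gene, neratinib against DMSO had 295 higher and 306 lower genes, both drugs against DMSO 293 and 337, and both drugs against fulvestrant 245 and 312. With MT- genes left out of the total, neratinib against DMSO had 203 higher and 635 lower of 5619 measured genes, with a median gene of -0.13. The higher mitochondrial share of the neratinib libraries stands beside this excess of lower genes, and its part in it was not tested.

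With fulvestrant, of 14 measured estrogen receptor targets, 0 were higher and 5 lower (median -0.41) against DMSO, where 0.203% of all genes were lower. In both drugs against neratinib 0 were higher and 6 lower (median -0.53), where 0.244% of all genes were lower. MYC and TSKU are in this list and lay under 20 CPM in both fulvestrant libraries, so they were measured only through the others. This favours lower genes in the counts. In fulvestrant against DMSO, beside 0.264% of all genes in either direction, 0 of 18 measured origin genes, 0 of 28 fork genes, 0 of 20 nucleotide supply genes and 0 of 14 genes of E2F and cyclin E were past 1.5-fold, with medians of 0.06, 0.00, -0.03 and 0.07. At so low a share of all genes, nothing is read from a count of 0 in lists of this size. Of 6 measured replication-dependent histones, 1 was lower, HIST2H2AC at -0.73, and the median was -0.29. Both drugs against neratinib had 0 in the 4 replication lists too, with medians of 0.02, 0.03, -0.01 and 0.01.

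MYC, a growth-driving transcription factor, had 18.1 CPM under fulvestrant and 66.6 under DMSO in early S cells, and 7.13 under both drugs and 53 under neratinib. The log2 ratios were -1.88 [-2.11, -1.66] and -2.89 [-3.23, -2.57]. CCND1, cyclin D, had 191 CPM under fulvestrant against 269.8 under DMSO, at -0.50 [-0.57, -0.42], and 24.3 under both drugs against 35.8 under neratinib, at -0.56 [-0.77, -0.34]. It was short of 1.5-fold in both pairs and is not among the lower genes counted here. TSKU, a secreted proteoglycan, had 14.1 against 49.5 CPM and 7.76 against 51.6 CPM in these pairs, at -1.81 and -2.73. The others among the 8 lowest by the naming rule were the EGFR ligand AREG, the ubiquitin ligase SIAH2, the receptor cofactor GREB1, the homeobox gene MSX2, the histone HIST2H2AC and SCGB2A2, a secretoglobin, at log2 ratios to DMSO between -1.0 and -0.69. ZNF703 and INPP4B, named after their values were seen, complete the 10 lower genes at -0.67 each. In both drugs against neratinib HIST2H2AC was at -0.13 and INPP4B at -0.27, short of 1.5-fold. For SCGB2A2 the 10 cells with most of its UMIs held 73.0% of them under fulvestrant and 71.1% under DMSO, so a few cells set its value.

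The 3 genes past 1.5-fold higher with fulvestrant were INSIG1, a sterol sensor, at 0.64 [0.45, 0.84] with 43.2 CPM against 27.7 under DMSO, and CREBRF and YPEL2, both at 0.59. CREBRF had 9.75 CPM under fulvestrant against 6.47 under DMSO, and YPEL2 had 12.2 against 8.09 CPM. Both lay under 20 CPM there, were measured only through the neratinib libraries and barely passed the limit. Only 1 gene was higher with the top 20% of cells, with the mean log2 score or without members in the histone set. Against neratinib alone, both drugs gave 0.54 for INSIG1, 0.12 for CREBRF and -0.10 for YPEL2. Among these 3, INSIG1 was of like size in the pair that shares no library. The sterol synthesis enzymes HMGCS1 and MSMO1 lay under the 1.5-fold limit, at 0.45 and 0.46 against DMSO and at 0.51 and 0.54 in both drugs against neratinib.

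With neratinib, the genes of cyclin E and RRM2 were lower in early S cells. CCNE1 had 17.5 CPM under fulvestrant, 2.39 under neratinib, 2.69 under both drugs and 17.9 under DMSO, from 196, 28, 34 and 244 UMIs. The neratinib libraries were far below the others, and the log2 ratios were -2.91 [-3.53, -2.34] for neratinib against DMSO and -2.70 [-3.27, -2.17] for both drugs against fulvestrant. RRM2 was at -1.42 [-1.55, -1.30] and -1.52 [-1.64, -1.39] in these pairs. CCNE2 was at -1.07 [-1.21, -0.94] and -0.98 [-1.11, -0.85]. E2F1 was at -0.35 [-0.52, -0.18] and -0.43 [-0.60, -0.26], short of 1.5-fold. With the DMSO cut in every library E2F1 was at -0.08 and -0.11, while CCNE1 was at -3.18 and -2.75, RRM2 at -1.16 and -1.29 and CCNE2 at -0.84 and -0.70. CLSPN, one of the markers that chose the cells, was at -0.90 and -1.02, and with the DMSO cut at -0.55 and -0.84, the first of these under the 1.5-fold limit.

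PCNA differed little, at -0.07 [-0.12, -0.02] for neratinib against DMSO and -0.05 [-0.10, -0.00] for both drugs against fulvestrant, and its sign turned with median-of-ratios scaling, at 0.13 and 0.12. CDT1 was at 0.27 [0.18, 0.36] and 0.21 [0.11, 0.31], and with the DMSO cut at 0.52 and 0.45. It is a marker, so its value in the chosen cells is shaped by the choice and is a description. CDKN1B, the p27 inhibitor of cyclin kinases, had 60.9 CPM under fulvestrant, 86.3 under neratinib, 84.6 under both drugs and 61.2 under DMSO, at 0.50 [0.36, 0.63] and 0.47 [0.33, 0.61]. As lists, 0 genes were higher and 5 lower of 18 for origins (median -0.24), 0 and 3 of 28 for the fork (-0.25), 0 and 5 of 20 for nucleotide supply (-0.37) and 0 and 2 of 14 for E2F and cyclin E (-0.30) with neratinib against DMSO, beside 2.48% and 14.3% of all genes and a median gene of -0.21. The share of lower genes in the origin and nucleotide lists was above that of all genes and in the fork list below it, and nothing particular to these lists is read from so few genes. PPAT and GART, enzymes of purine synthesis, were among the nucleotide supply genes, at -1.39 and -0.89. The 8 marker genes had 0 higher and 4 lower (median -0.57), which the choice of cells within each library affects; with the DMSO cut the median was -0.26.

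**Figure D4:**
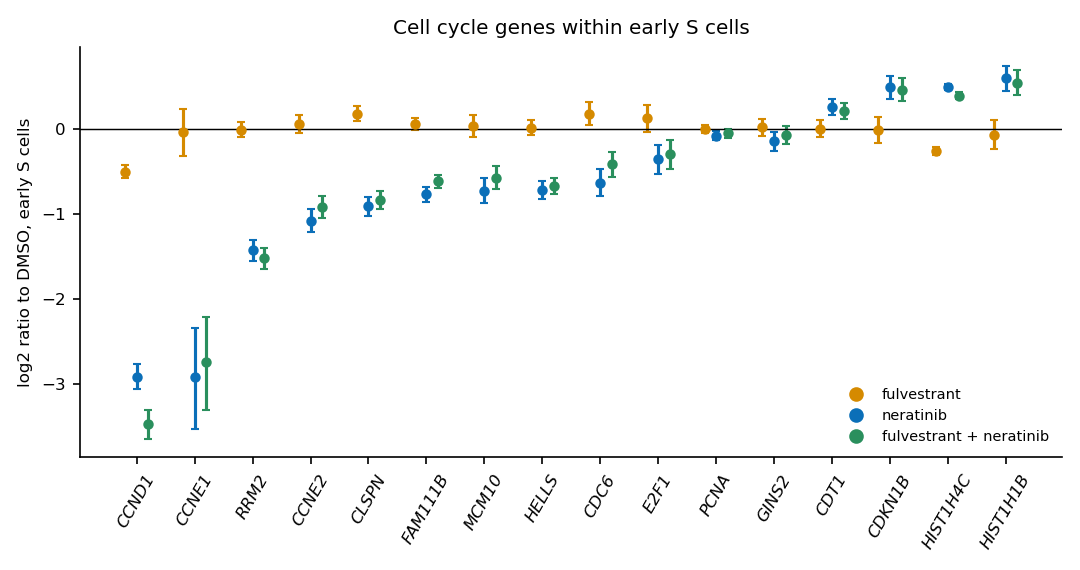
Log2 ratio to DMSO of 16 cell cycle genes within early S cells for fulvestrant, neratinib and both drugs, with 95% counting intervals and 1 library per group. The fulvestrant points lie between -0.50 (CCND1) and 0.19 (CDC6 and CLSPN), while the neratinib libraries range between -3.47 for CCND1 and 0.60 for HIST1H1B.

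Genes downstream of ERK, the kinase cascade below HER2, were far lower in both neratinib libraries. Of 18 genes of ERK output, 5 were measured. All 5 were lower with neratinib against DMSO (median -2.91) and with both drugs against fulvestrant (median -2.97). In these pairs 14.3% and 12.9% of all genes were lower, with a median gene of -0.21 and -0.19. CCND1 had 191 CPM under fulvestrant, 35.8 under neratinib, 24.3 under both drugs and 269.8 under DMSO. FOS had 43.4, 1.96, 1.98 and 43.0 CPM, and EGR1 had 80.5, 4.69, 4.44 and 72.7 CPM. Of 24 immediate early genes, 13 were measured, and 0 were higher and 7 lower in either pair, beside the same shares of all genes. FOS and EGR1 are in both lists and were measured only through the libraries without neratinib. This favours lower genes in both counts.

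Of 28 FOXO targets and quiescence genes, 15 were measured. With neratinib against DMSO 9 were higher and 0 lower (median 1.18), beside 2.48% and 14.3% of all genes and a median gene of -0.21. With both drugs against fulvestrant 9 were higher and 1 lower (median 1.20), beside 2.25% and 12.9% and a median gene of -0.19. HBP1 and CREBRF lay under 20 CPM without neratinib and were measured only through the neratinib libraries. This favours higher genes in the count, and the list was chosen with earlier results of these data known. HBP1, a repressor of cell cycle genes, had 17.7 CPM under fulvestrant, 100.4 under neratinib, 102 under both drugs and 17.7 under DMSO, at 2.51 [2.31, 2.71] against DMSO. CREBRF, KLHL24 and TNFSF10, a death ligand, were at 2.95, 2.59 and 2.71. Whether high HBP1 and high replication RNA sat in the same cells was not tested, since the values are sums over cells.

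Of 13 measured genes of MYC and ribosome biogenesis, 0 were higher and 8 lower with neratinib against DMSO (median -0.76). Over all genes 2.48% were higher and 14.3% lower, with a median gene of -0.21. SRM, spermidine synthase, was at -1.17. ERBB3, the HER3 receptor, had 55.7 CPM under fulvestrant, 117 under neratinib, 110.3 under both drugs and 58.1 under DMSO. GRB7, an adaptor encoded beside ERBB2, had 298, 659, 622 and 255 CPM. Both are in a list of ERBB receptors and ligands whose members did not all go this way. AREG, of the same list, was lower with neratinib, at 44.7, 31.8, 14.3 and 89.5 CPM. ERBB2 was at -0.03 for neratinib against DMSO. BRD8, a bromodomain subunit of the TIP60 complex, had 20.2, 51.0, 49.0 and 16.7 CPM, at 1.61 [1.39, 1.84] for neratinib against DMSO and 1.28 for both drugs against fulvestrant. In the other cells BRD8 had 22.7, 60.3, 60.5 and 24.3 CPM. ESR1, the receptor gene, lay under 20 CPM in all 4 libraries, at 10.9, 17.8, 12 and 10.9 CPM.

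Genes of G2 and mitosis had 7 of 31 higher and 1 lower with neratinib against DMSO (median 0.32), beside 2.48% and 14.3% of all genes and a median gene of -0.21. With both drugs against fulvestrant 5 were higher and 1 lower (median 0.24), beside 2.25% and 12.9% and a median gene of -0.19. HMMR, a spindle protein, had 30.9 CPM under fulvestrant, 62.7 under neratinib, 62.0 under both drugs and 27.2 under DMSO. CDC20, the activator of the anaphase ubiquitin ligase, had 30.2, 16.6, 14.8 and 34.1 CPM and was the lower one. The 8 scoring genes of G2 and mitosis summed to 476 CPM under neratinib and 378 under DMSO in early S cells. With the DMSO cut these sums were 388 and 378 CPM, and without the cells of the histone set 348 and 321 CPM. In both drugs against fulvestrant the sums were 439 and 369 CPM, 375 and 367 CPM with the DMSO cut, and 357 and 325 CPM without the cells of the histone set.

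The last comparison asked whether early S cells responded by another amount than the other cells of the same libraries. It is the log2 ratio in early S cells minus that in the other cells, over 2430 genes with a mean of at least 50 CPM in early S cells. The count past 1.5-fold was 0 higher and 1 lower for fulvestrant against DMSO (0% and 0.0412%), with SCGB2A2 the one gene, and 0 and 0 for both drugs against neratinib (0% and 0%). It was 8 higher and 1 lower for neratinib against DMSO (0.329% and 0.0412%, 0.37% in all), 5 and 1 for both drugs against fulvestrant (0.206% and 0.0412%, 0.247% in all) and 6 and 3 for both drugs against DMSO (0.247% and 0.123%). Genes past this limit were thus few in every pair.

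**Figure D5:**
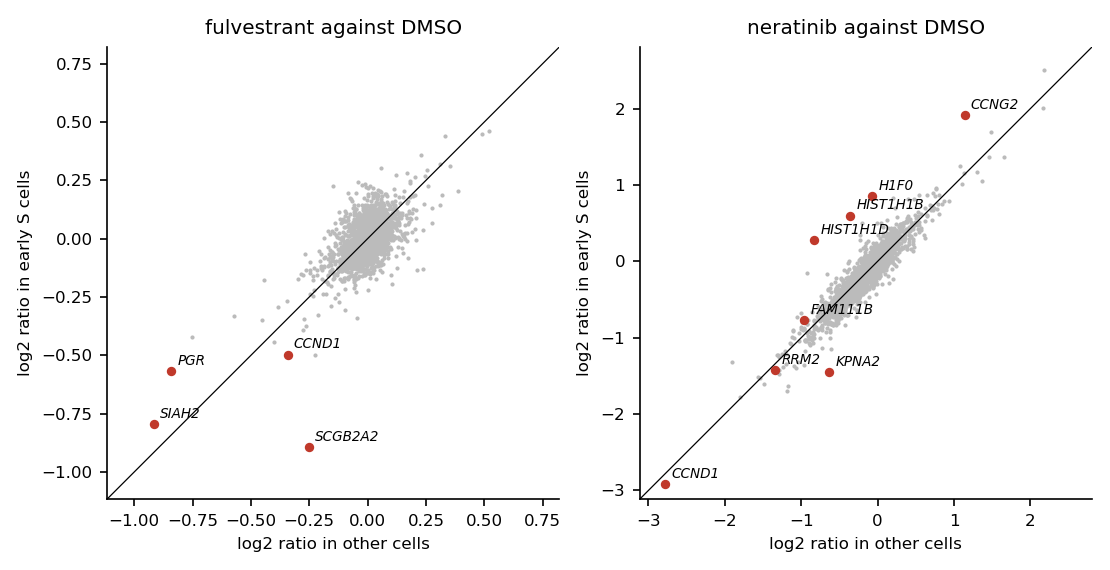
Log2 ratio in early S cells (vertical) against that in the other cells (horizontal) for 2430 genes, for fulvestrant against DMSO and neratinib against DMSO; the line marks equal response, and there is 1 library per group. HIST1H1D, HIST1H1B and H1F0 lie above the line under neratinib and KPNA2 below it.

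Linker histones were among the 8 higher genes for neratinib against DMSO. H1F0, a linker histone of non-dividing cells, had 63.8 CPM under fulvestrant, 126 under neratinib, 128 under both drugs and 69.6 under DMSO in early S cells, against 82.9, 72.2, 73.3 and 75.9 CPM in the other cells. HIST1H1D had 64.6, 99.5, 88.8 and 81.8 CPM, against 26.6, 15.5, 18.5 and 27.5 CPM, and HIST1H1B 45.1, 71.2, 68.9 and 47.0 CPM, against 15.1, 12.1, 13.6 and 15.5 CPM. The differences for neratinib against DMSO were 0.93 [0.80, 1.06] for H1F0, 1.11 [0.96, 1.27] for HIST1H1D and 0.96 [0.77, 1.16] for HIST1H1B, and for both drugs against fulvestrant 1.18 [1.04, 1.32], 0.98 [0.81, 1.15] and 0.76 [0.56, 0.96]. H1FX, a further linker histone named after its values were seen, was at 0.62 and 0.60. H1F0, HIST1H1D and HIST1H1B were higher with neratinib in early S cells and lower in the other cells in both pairs as chosen here. In the other cells H1F0 was at -0.07 and -0.18 and HIST1H1B at -0.36 and -0.15, beside a median gene of -0.18 and -0.17, so relative to the median gene H1F0 against DMSO and HIST1H1B in the second pair were not lower there. With the DMSO cut in every library the other cells had 78.8 CPM of H1F0 and 17.9 of HIST1H1B under neratinib, against 75.9 and 15.5 CPM under DMSO, so the direction there turned for both. In both drugs against fulvestrant it turned for HIST1H1B, at 18.4 against 14.8 CPM, and not for H1F0, at 79.4 against 83.3 CPM. HIST1H1D was lower in the other cells of both pairs under that cut too. The differences of response were then 0.44 for H1F0, 0.45 for HIST1H1D and 0.27 for HIST1H1B against DMSO, under the 1.5-fold limit, and 0.78, 0.52 and 0.35 in the second pair, where H1F0 alone passed it.

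CCNG2, a cyclin G of resting cells, had 67.9 CPM under fulvestrant, 214 under neratinib, 227 under both drugs and 56.6 under DMSO in early S cells, against 120.0, 229, 248 and 104 CPM in the other cells. Early S cells were thus well below the other cells without neratinib and close to them with it, a difference of 0.78 [0.66, 0.90] for neratinib against DMSO and 0.70 [0.57, 0.82] for both drugs against fulvestrant. KPNA2, a nuclear import carrier, went the other way, with 88.4, 34.6, 28.4 and 94.6 CPM against 173, 128, 109 and 199 CPM, at -0.82 [-0.98, -0.65] and -0.98 [-1.16, -0.80]. With the DMSO cut CCNG2 was at 0.73 and 0.61 and KPNA2 at -0.90 and -1.14. CCNE1 was at -1.20 [-1.85, -0.54] and -1.41 [-2.01, -0.80], below the level limit of this comparison. CASP8AP2, needed for histone transcription, was at -0.46 [-0.62, -0.30] and -0.53 [-0.69, -0.37].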

How the data were processed

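Gene UMI counts per barcode were deposited by the authors as 1 matrix of 33538 genes over 4 libraries of BT474 cells. Per the submitters' processing notes they were made with Cell Ranger 3.1.0, and the notes name hg19. The labels give 10x 3′ chemistry, 3000 cells targeted per sample and 60000 reads per cell. The barcode suffix was matched to a library by the number that opens each sample title. The libraries held 90336164 UMIs under fulvestrant, 89559704 under neratinib, 99053622 under both drugs and 110511222 under DMSO over all barcodes.

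UMIs were summed per library over early S cells and over other cells and scaled to UMIs per 1000000 UMIs (CPM). Log2 ratios of CPM carry exact conditional binomial 95% intervals of 2 Poisson counts, and shares carry Clopper-Pearson intervals. A gene was measured at a mean of at least 20 CPM (50 CPM for a difference of responses) and past the limit at 1.5-fold. Shared gene symbols (24 symbols over 48 IDs) were kept as separate genes. No doublet caller was run, and leaving out cells above the 95th percentile of UMIs was an alternative. The steps were tested on simulated data. Python 3.11.15 with numpy 2.4.6, scipy 1.17.1, pandas 2.3.3 and matplotlib 3.10.9 was used.

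The members and the 26 gene lists were chosen with earlier results of these data known. Named genes were the 8 markers with CCNE1, CCNE2, E2F1, PCNA, CCND1, MYC, CDKN1B, ESR1, ERBB2 and BRD8, then those with the greatest ratios in each comparison, with the same sign in the pair that shares no library, and up to 4 per list. Alternatives were other ceilings of mitochondrial UMIs, other shares of cells, another score, choice and reading on separate random UMIs, other scalings, cell weights, UMI minimums and a limit of 5 CPM. The DMSO cut in every library and leaving out members of the histone set were added after seeing the data. Promoters came from RefSeq on GRCh38.p14.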

Additional observations from a re-analysis of the deposited data

Results flagged for a closer look

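HIST1H1D, HIST1H1B and H1F0, 3 linker histone genes, stand out because, with cells chosen as the top 12% of each library, they were higher under neratinib than under DMSO in early S cells and lower in the other cells. The response in early S cells minus that in the other cells, neratinib against DMSO, was 1.11 for HIST1H1D, 0.962 for HIST1H1B and 0.927 for H1F0 on the log2 scale. Both drugs against fulvestrant, a pair that shares no library with it, gave 0.98, 0.76 and 1.18. In the other cells H1F0 was at -0.07 against DMSO, beside a median gene of -0.18, so its opposite direction holds on the total-count scale. The difference was not tested, since each group is 1 library. With the DMSO cut in every library the values against DMSO were 0.45, 0.27 and 0.44, and the other cells were higher under neratinib for H1F0 (78.8 CPM, against 75.9 under DMSO) and HIST1H1B (17.9 CPM, against 15.5), so the opposite direction was lost for both. HIST1H1D kept it. At a ceiling of 20% mitochondrial UMIs it was lost for H1F0 (82.4 CPM under neratinib, against 77.2 under DMSO). That ceiling kept 1317 of 3433 neratinib cells and 3671 of 4240 DMSO cells.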

How the results depend on the processing

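With 1 library per group, no value here has a replicate error, so settings were compared by size alone. No paired analysis was possible because each group has 1 library. Of 182 recomputed counts, 151 were within 1.5 times the reported count and 31 were not. A limit of 5 CPM gave 886 genes past 1.5-fold in early S against other cells under fulvestrant, 960 under neratinib, 912 under both drugs and 872 under DMSO. Within early S cells fulvestrant against DMSO had 71 genes, both drugs against neratinib 119, neratinib against DMSO 2121, both drugs against fulvestrant 1945 and both drugs against DMSO 2083. For early S minus other cells it gave 39, 86, 152, 161 and 133 in the same order of pairs. This setting tests more genes, with fewer UMIs each.

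Both drugs against neratinib within early S cells gave 35 genes at a ceiling of 20% mitochondrial UMIs, 27 with the top 6% of cells and 36 with the DMSO cut, against 12 reported. The 20% ceiling kept 159 of 412 early S cells under neratinib and 176 of 456 under both drugs. It kept 345 of 408 under fulvestrant and 441 of 509 under DMSO, so it acted unequally on the libraries. The early S minus other difference for fulvestrant against DMSO gave 0 at 20% mitochondrial UMIs, with the top 6% and with the mean log2 score. For both drugs against neratinib it gave 1 at 20% mitochondrial UMIs, 2 with the top 6%, 1 with median-of-ratios scaling, 1 with the DMSO cut and 2 without the histone set. Neratinib against DMSO had 3 with the DMSO cut and 5 without the histone set. Both drugs against fulvestrant had 10 with the mean log2 score, 10 with choice and reading on separate UMIs and 3 with the DMSO cut, while both drugs against DMSO had 4 with the DMSO cut. The causes were not tested.

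The share of cells past the DMSO cut under fulvestrant was 13.6% unthinned and 13.8% per non-mitochondrial UMIs. Under neratinib it was 8.96% at 20% mitochondrial UMIs, 6.01% thinned to 10000 UMIs, 4.75% unthinned and 5.65% per non-mitochondrial UMIs. Under both drugs it was 9.98% at 20% mitochondrial UMIs, 7.92% with the mean log2 score, 7.26% thinned to 10000 UMIs, 5.16% unthinned and 6.29% per non-mitochondrial UMIs. Under DMSO it was 12.7% thinned to 10000 UMIs and 12% both unthinned and per non-mitochondrial UMIs.

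The median of the 8 marker genes, neratinib against DMSO, was -0.37 with median-of-ratios scaling and -0.26 with the DMSO cut. Origin genes in early S against other cells had a median of 1.45 at 20% mitochondrial UMIs, 1.40 with the top 6%, 1.72 with the top 20%, 1.73 with cells weighted alike, 1.42 at 5 CPM and 1.46 with the DMSO cut. Histones, neratinib against DMSO, had 0.32 with the top 20%, 0.69 with median-of-ratios scaling and 0.30 with the DMSO cut. Genes of G2 and mitosis in early S against other cells had -0.72 at 20% mitochondrial UMIs, -0.48 with the top 6%, -0.21 with the top 20%, -0.018 with cells weighted alike, -0.17 without the deepest cells, -0.45 with the DMSO cut and -0.65 without the histone set. With median-of-ratios scaling, ERK output had -2.71 and FOXO targets 1.38, neratinib against DMSO. SCGB2A2, both drugs against neratinib, turned to 0.0994 with choice and reading on separate UMIs, against -0.74 reported.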
